A study of Mus musculus with 6 samples.

Results

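The genes described here are those of the mitochondrial protein import machinery named Timm or Tomm and those of the mitochondrial carrier family named Slc25a, in DP thymocytes with and without NSrp70. They were chosen by symbol: a row of the expression tables was taken when its symbol began with Timm or Tomm followed by a digit, or with Slc25a, and it was kept when its level was at least 1 FPKM in at least 3 of the 6 libraries. FPKM divides the fragments of a gene by its transcript length and by the mapped total, so levels are per length and genes can be set against each other. Of 23183 symbols, 72 met the name rule, 25 of them Timm or Tomm and 47 Slc25a. The filter kept 59 of these, 22 Timm and Tomm genes and 37 Slc25a genes, among 10326 genes kept in all. The 13 that it left out were Timm8a2, Tomm20l, Tomm6os, Slc25a2, Slc25a18, Slc25a21, Slc25a31, Slc25a33, Slc25a34, Slc25a41, Slc25a43, Slc25a48 and Slc25a54. The highest single value among them was 0.834 FPKM, for Slc25a33, and Tomm20l, Slc25a21, Slc25a48 and Slc25a54 were listed at 0 in every library. At the edge of the filter, Slc25a42, Slc25a47 and Slc25a53 were kept through their WT values, since some of their cKO values lay under 1 FPKM. The TIM22 subunit gene Timm29 is listed under an older name, 1810026J23Rik, and so did not meet the name rule.

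RNA sequencing was performed on sorted DP (CD4+CD8+) thymocytes of C57BL/6 mice aged 6 weeks, with 3 libraries of WT mice (Nsrp1 f/f) and 3 of NSrp70-cKO mice (Nsrp1 f/f CD4Cre), called cKO here. Both groups carry the floxed Nsrp1 alleles, and only the cKO mice carry Cre, which is driven by Cd4 regulatory sequence and acts in thymocytes and their T cell progeny rather than in all tissues. Whether the 3 libraries of a group came from separate mice is not stated in the sources used here, so the p-values measure only the spread between these libraries, which may be technical. Nsrp1, the targeted gene, is listed under its older symbol Ccdc55.

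Nsrp1 was at 20.2, 20.7 and 21.1 FPKM in the WT libraries and 17.7, 15.8 and 15 FPKM in the cKO libraries, and every cKO value was under every WT value (log2 fold change -0.34, adjusted p = 0.00675). Its adjusted p was 0.184 if the 3 WT libraries were taken as 1 sample. All 8 DP marker genes were present, and Cd4, Cd8a, Cd8b1, Rag1, Rag2 and Dntt were the 6 that were higher in cKO, and 1 was lower. Of 6 markers of mature single-positive cells, 5 were lower in cKO and 1 was higher, and their summed level ran from 128.7 to 130.1 FPKM in WT and from 101.4 to 124.5 FPKM in cKO. B cell markers summed to at most 1.19 FPKM and myeloid markers to at most 4.72 FPKM in any library, and the 4 epithelial markers summed to 3.45 to 3.80 FPKM in WT and 1.88 to 3.62 FPKM in cKO, nearly all of it Epcam, with Krt5 and Foxn1 at 0. The 5 erythroid markers summed to between 2.00 and 2.79 FPKM in WT and between 12.5 and 26.9 FPKM in cKO. This came from the globin genes Hbb-b1 and Hba-a1, while Alas2 and Klf1 were at most 0.642 and 0.393 FPKM in any library. Xist averaged 70.9 FPKM in WT and 4.75 FPKM in cKO, and the Y-linked Ddx3y was at 0 in WT and averaged 31.0 FPKM in cKO, so that genotype and sex cannot be told apart. Depth, estimated from the spacing of low FPKM values, was 20.7 to 20.9 M fragments in WT and 13.2 to 20.7 M fragments in cKO (M, mega). The variance between pairs of libraries was 1.61 to 1.68 times that of counting noise in WT and 29.7 to 75.9 times in cKO. The total FPKM per library was 521296 to 531517 in WT and 701396 to 850548 in cKO. Because fewer cells of a type and less RNA per cell give the same change in a bulk library, they cannot be told apart in any comparison that follows.

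Nearly all mitochondrial proteins are encoded in the nucleus and imported after translation. They enter through the TOM complex of the outer membrane, whose receptors bind the precursor and whose channel passes it inward. The TIM23 complex then carries proteins with a presequence into the matrix or inner membrane with the help of an ATP-driven motor, while the small TIM chaperones of the intermembrane space hand hydrophobic proteins to the TIM22 complex for insertion into the inner membrane. The main clients of TIM22 are the Slc25a carriers themselves, which exchange nucleotides, phosphate, organic acids, amino acids, cofactors and metal ions across the inner membrane. DP thymocytes are the large population of the thymus that rearranges the T cell receptor alpha chain and undergoes selection, and most of them die there.

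The calls of the import genes ran upward and those of the carriers ran both ways. Of the 22 Timm and Tomm genes, 17 were higher in cKO, none was lower, and 5 did not pass the test. Of the 37 Slc25a genes, 9 were higher, 13 were lower and 15 did not pass the test. The test was limma on log2(FPKM + 1) over all 10326 genes, called at a Benjamini-Hochberg adjusted p under 0.05, and every fold change below is on the log2(FPKM + 1) scale, cKO minus WT, which understates the change of low genes. Over all tested genes 35.8% were called higher and 29.8% lower, so that many genes of any kind were called. The median log2 fold change was 0.61 over the Timm and Tomm genes, -0.16 over the Slc25a genes and 0.039 over all tested genes. In 17 Timm and Tomm genes every cKO value lay above every WT value, and in none did every cKO value lie below, beside 39.2% and 33.3% of all tested genes. Of the Slc25a genes, 10 had all cKO values above and 17 all cKO values below WT. The WT libraries lay so close to each other that they were also counted as 1 sample. On that count only Timm10, Timm17a and Timm22 were called higher among the import genes, Slc25a13 higher among the carriers, and Slc25a27, Slc25a37 and Slc25a42 lower, with 7.16% of all tested genes called higher and 8.74% lower.

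**Figure D1:**
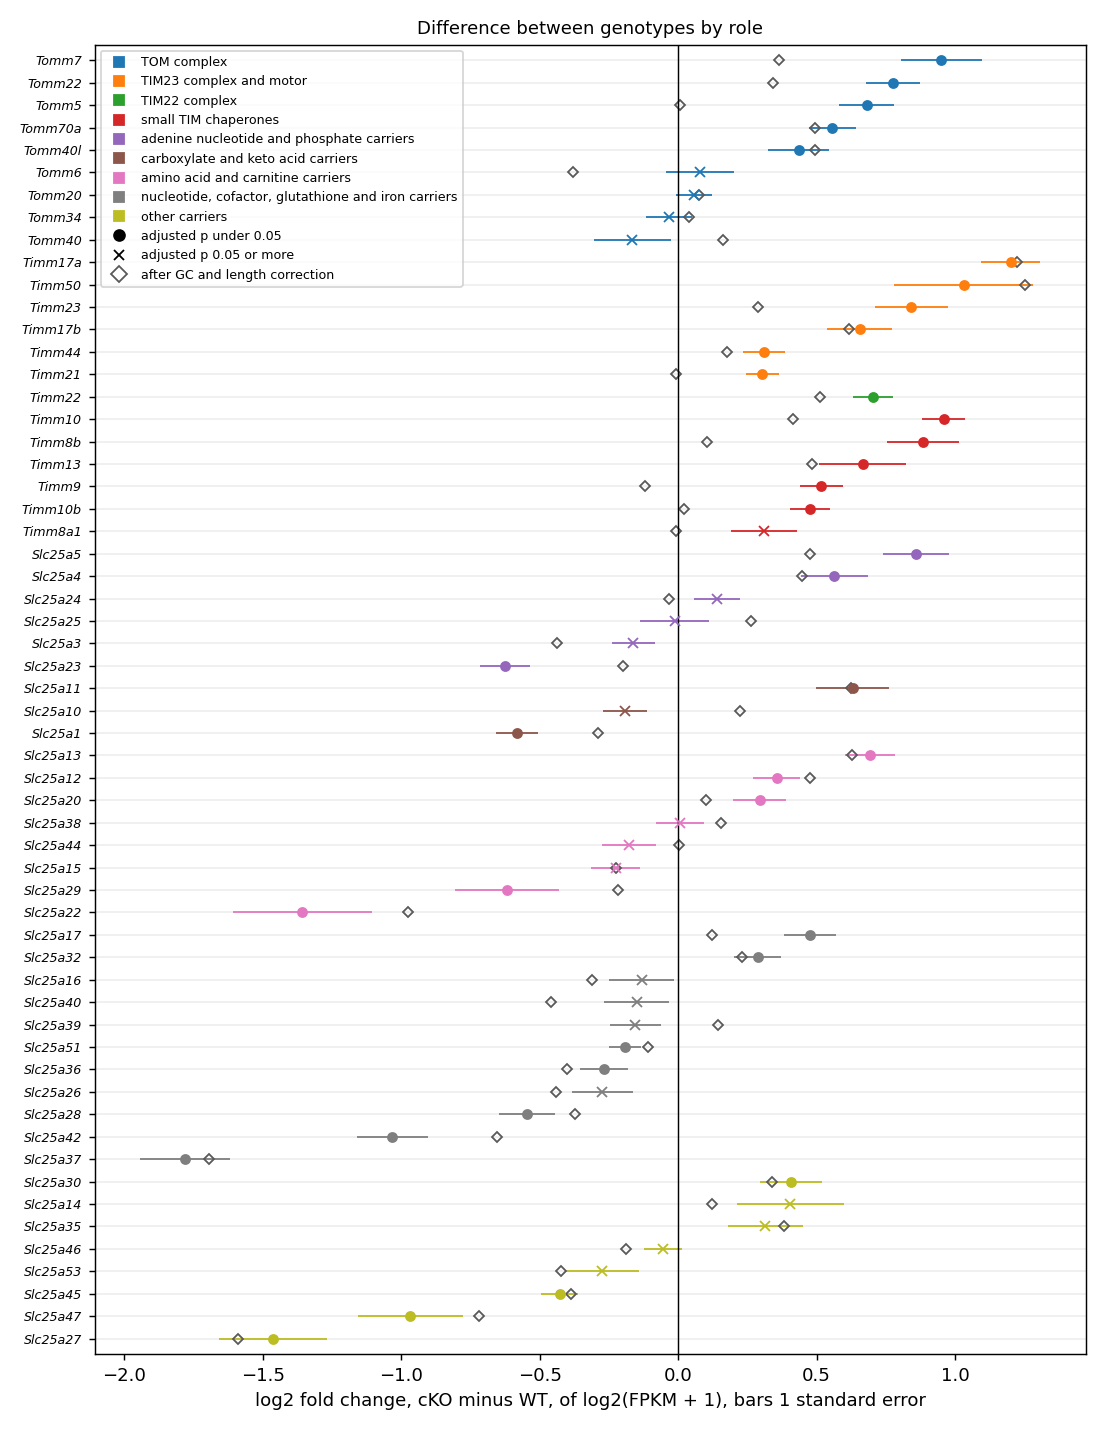
Log2 fold change of log2(FPKM + 1), cKO minus WT, for 58 of the 59 genes (vertical axis) grouped by role, with bars of 1 standard error, 3 libraries per genotype; filled circles passed the test at an adjusted p under 0.05, crosses did not, and open diamonds give the value corrected for transcript length and GC content. The 6 TIM23 genes all lie to the right of 0, from 0.30 to 1.20, and the nucleotide, cofactor and iron carriers lie mostly to the left, down to -1.78 for Slc25a37.

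As a share of the summed FPKM of a library, the 59 genes together made up 0.405, 0.412 and 0.406% in WT and 0.389, 0.408 and 0.405% in cKO, and these ranges overlapped. The Timm and Tomm genes took 0.181, 0.185 and 0.181% in WT and 0.190, 0.204 and 0.201% in cKO, with every cKO share above every WT share. The Slc25a genes took 0.224, 0.227 and 0.225% in WT and 0.199, 0.204 and 0.204% in cKO, with every cKO share below every WT share. These shares are relative to the total FPKM, which was itself higher in cKO, and so give the same scaling as bringing all libraries to 1 total.

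The genes of the TIM23 complex and its motor anchor, the route into the matrix, were higher in cKO in 6 of 6 cases, with a median log2 fold change of 0.75. Timm17a (chr1:135295213-135313778 in mm10), one of the paired channel-forming subunits of TIM23, was at 38.1, 33.1 and 33.97 FPKM in the WT libraries and 87.6, 70.99 and 87.9 FPKM in the cKO libraries. The lowest cKO value was thus well above the highest WT value, and the difference was the largest of the 59 genes upward (log2 fold change 1.20, SE 0.11, adjusted p = 0.000208). Timm17b, the other form of that subunit, was at 17.8, 16.8 and 18.2 FPKM in the WT libraries and 29.98, 23.6 and 32 FPKM in the cKO libraries (log2 fold change 0.66, adjusted p = 0.00245). Timm50, the receptor that takes precursors from the outer membrane, was at 30.8, 30.6 and 29.8 FPKM in the WT libraries and 86.9, 40.95 and 71.01 FPKM in the cKO libraries (log2 fold change 1.03, SE 0.25, adjusted p = 0.00901). Its groups did not overlap, but the cKO libraries were far apart, and without cKO library 2 its log2 fold change was 1.35. Timm23, the other core subunit and the most abundant of the 6, was at 122, 122 and 121 FPKM in the WT libraries and 235, 178 and 250.4 FPKM in the cKO libraries (log2 fold change 0.84, adjusted p = 0.00145). Timm44, which tethers the matrix Hsp70 motor to the channel, was at 27.1, 28.6 and 27.1 FPKM in the WT libraries and 37.7, 32.3 and 33.8 FPKM in the cKO libraries (log2 fold change 0.31, adjusted p = 0.0102). Timm21, which connects TIM23 with TOM and the respiratory chain, was at 24.7, 26.1 and 25.8 FPKM in the WT libraries and 30.6, 33.04 and 31.8 FPKM in the cKO libraries (log2 fold change 0.30, adjusted p = 0.00372). In these last genes the groups were also apart, with much smaller differences than for Timm17a.

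Timm22, the channel subunit of the TIM22 complex that inserts carriers, was at 11.1, 10.6 and 10.8 FPKM in the WT libraries and 17.6, 17.4 and 19.9 FPKM in the cKO libraries. No cKO value came near the WT range (log2 fold change 0.70, SE 0.073, adjusted p = 0.000326), and it was 1 of the 3 import genes still called with WT counted as 1 sample.

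The small TIM genes encode the chaperones that carry hydrophobic precursors through the intermembrane space, and 5 of 6 were higher in cKO, with a median log2 fold change of 0.59. Timm10 (chr2:84826997-84830213), which forms the main chaperone ring together with Timm9, was at 5.74, 5.68 and 5.53 FPKM in the WT libraries and 10.8, 12.7 and 12.3 FPKM in the cKO libraries. Both groups were tight and the cKO level was 2.12 times that of WT, with the smallest adjusted p of all 59 genes (log2 fold change 0.96, SE 0.076, adjusted p = 0.000148). Its partner Timm9 was at 11.8, 11.9 and 12.1 FPKM in the WT libraries and 18.1, 18.9 and 15.8 FPKM in the cKO libraries (log2 fold change 0.52, adjusted p = 0.00124). Timm10b, the small TIM bound to the TIM22 complex, was at 27.6, 26.2 and 27.6 FPKM in the WT libraries and 36.7, 36.6 and 41.4 FPKM in the cKO libraries (log2 fold change 0.48, adjusted p = 0.0013). These 3 genes had groups that did not overlap. Timm10b shares 368 exon bases on the same strand with the protein-coding gene Gm45799, so its level is uncertain. Timm13, a partner of the Timm8 proteins in the second ring, was at 47.4, 45.3 and 44.1 FPKM in the WT libraries and 83.2, 56.1 and 83.5 FPKM in the cKO libraries (log2 fold change 0.67, adjusted p = 0.00788). Of those partners, Timm8b was at 81.1, 92.2 and 84.3 FPKM in the WT libraries and 136, 154 and 192 FPKM in the cKO libraries (log2 fold change 0.88, adjusted p = 0.00105). Timm8a1, the mouse counterpart of the gene mutated in a human deafness and dystonia syndrome, was at 17.4, 14.5 and 18.2 FPKM in the WT libraries and 17.9, 22.04 and 23.04 FPKM in the cKO libraries. Its groups overlapped and it missed the threshold (log2 fold change 0.31, adjusted p = 0.054), though without cKO library 1 it passed it, at a log2 fold change of 0.42 and an adjusted p of 0.0164.

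The genes named Tomm, which include Tomm34, were less uniform, with 5 of 9 higher in cKO, none lower and a median log2 fold change of 0.44. Of all tested genes, 35.8% were called higher. Tomm22, the central receptor and the most abundant import gene in WT, was at 131, 132 and 137 FPKM in the WT libraries and 229, 204 and 256 FPKM in the cKO libraries (log2 fold change 0.78, adjusted p = 0.00064). Tomm70a, the receptor that takes up carriers and other hydrophobic precursors, was at 28.9, 28.2 and 28.2 FPKM in the WT libraries and 44.5, 37.8 and 45.1 FPKM in the cKO libraries (log2 fold change 0.56, adjusted p = 0.00125). Tomm20, the receptor for presequences, was at 32.4, 31.2 and 33.02 FPKM in the WT libraries and 31.9, 33.6 and 35.3 FPKM in the cKO libraries, and its groups overlapped (log2 fold change 0.056, adjusted p = 0.468). Thus of the 3 receptor genes, those of Tomm22 and Tomm70a rose and that of Tomm20 did not pass the test. Tomm40, the channel itself, was at 35.9, 36.04 and 30.7 FPKM in the WT libraries and 31.4, 24.8 and 35.7 FPKM in the cKO libraries (log2 fold change -0.17, adjusted p = 0.324). Its lower expressed relative Tomm40l was at 7.19, 8.57 and 8.09 FPKM in the WT libraries and 12.1, 9.51 and 11.8 FPKM in the cKO libraries (log2 fold change 0.44, adjusted p = 0.0108). Exons of Tomm40l share 2160 bases with Nr1i3 on the opposite strand, and the libraries were made with a directional kit but the strand setting of the counting is not given in the sources used here, so the level of Tomm40l is uncertain. Of the small TOM subunits that stabilise the complex, Tomm7 was at 81.1, 81.8 and 80.2 FPKM in the WT libraries and 124, 168 and 188 FPKM in the cKO libraries (log2 fold change 0.95, adjusted p = 0.00127). Tomm5 was at 77.5, 84.96 and 76.7 FPKM in the WT libraries and 113, 143 and 131 FPKM in the cKO libraries (log2 fold change 0.68, adjusted p = 0.00102). Both were higher in every cKO library, and Tomm6 was not. Tomm6 was at 58.5, 51.4 and 54.1 FPKM in the WT libraries and 47.4, 63.6 and 63.9 FPKM in the cKO libraries (log2 fold change 0.079, adjusted p = 0.594), and without cKO library 1 it was called higher at a log2 fold change of 0.22 and an adjusted p of 0.0393. It shares 656 exon bases on the same strand with the predicted gene Gm21981, so its level is uncertain. Tomm34, a cytosolic co-chaperone that carries the name without being a TOM subunit, was at 46.6, 46.99 and 48.3 FPKM in the WT libraries and 42.5, 52.2 and 44.5 FPKM in the cKO libraries (log2 fold change -0.033, adjusted p = 0.743).

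**Figure D2:**
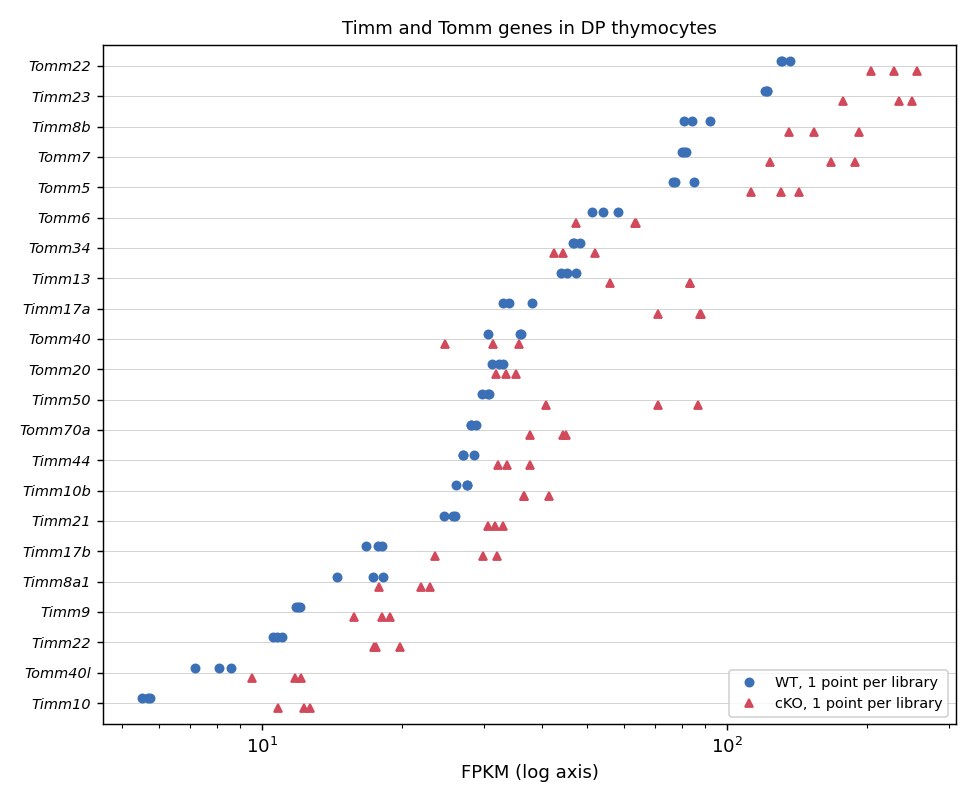
FPKM (log axis) of the 22 Timm and Tomm genes, ordered by their WT mean, with 1 blue circle for each of 3 WT libraries and 1 red triangle for each of 3 cKO libraries. The groups are apart in 17 genes, all with cKO higher, and overlap for Tomm6, Tomm20, Tomm34, Tomm40 and Timm8a1.

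A short motif was in promoter windows of 4 import genes and 1 carrier called higher, and some of these windows are shown here. RefSeq promoter windows of 250 bases before to 50 bases after the start (GRCm38.p6) were at hand for 47 of the 59 genes. The ETS core, CCGGAAGT read on either strand and known as the binding motif of ETS factors such as GABP at genes of mitochondrial proteins, was in a window of 5 of the 22 genes called higher, of none of 9 called lower and of none of 16 not called. A gene with several starts has several windows and was counted once. The 5 were Timm10, Timm10b, Timm23, Tomm70a and Slc25a20. After correction for GC content and length, Timm10b and Slc25a20 were no longer called (log2 fold changes 0.023 and 0.10). The call of Slc25a20 was also lost when some single libraries were left out. Among tested genes with a window the ETS core was in 10.6% of 7923, in 13.4% of those called higher and in 7.8% of those called lower. It was in 4.3% of all 27025 genes with a window of this length. Over the 47 genes as a whole the share was also 10.6%. The bases before the start are given for the 3 genes whose motif, in capitals, lies there.
Timm23 (chr14:32201892-32202141, minus strand): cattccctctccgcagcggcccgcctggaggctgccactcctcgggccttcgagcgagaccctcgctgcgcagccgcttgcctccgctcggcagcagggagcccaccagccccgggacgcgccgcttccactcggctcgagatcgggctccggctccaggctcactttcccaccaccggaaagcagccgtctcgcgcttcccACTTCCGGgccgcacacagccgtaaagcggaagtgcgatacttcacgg
Tomm70a (chr16:57121464-57121713, plus strand): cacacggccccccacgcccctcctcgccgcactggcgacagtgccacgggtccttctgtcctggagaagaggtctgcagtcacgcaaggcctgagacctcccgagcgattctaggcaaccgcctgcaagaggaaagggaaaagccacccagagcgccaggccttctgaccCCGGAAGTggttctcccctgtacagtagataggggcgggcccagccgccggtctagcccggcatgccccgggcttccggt
Slc25a20 (chr9:108661886-108662135, plus strand): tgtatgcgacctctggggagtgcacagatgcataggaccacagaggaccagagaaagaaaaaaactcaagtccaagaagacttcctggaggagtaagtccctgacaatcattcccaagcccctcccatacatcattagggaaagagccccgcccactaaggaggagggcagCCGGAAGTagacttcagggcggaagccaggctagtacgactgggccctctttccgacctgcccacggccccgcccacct
The first base of the motif is at -48 in Timm23, -80 in Tomm70a and -79 in Slc25a20, and in Timm10 and Timm10b it lies after the start, at 17 and 36. The E-box CACGTG was in windows of 9 of the 47 genes (19.1%, against 12.3% of tested genes), 3 of them of genes called higher, 2 called lower and 4 not called. The NRF1 core GCGCATGC was in 1, that of Timm13 (6.8% of tested genes), and the YY1 core AAGATGGC in 2, those of Timm50 and Slc25a3 (6.1% of tested genes). All motifs were searched on both strands, and no motif contains another. A match describes the letters of the window and not binding.

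Among the carriers, the ADP/ATP exchangers stood out by level. Slc25a5 (chrX:36795651-36798807), the ADP/ATP carrier of dividing cells, was at 487, 479.9 and 485 FPKM in the WT libraries and 883, 770.5 and 999 FPKM in the cKO libraries. It was the most abundant of the 59 genes in every library, and no cKO value was near the WT range (log2 fold change 0.86, SE 0.12, adjusted p = 0.000861). Slc25a4, the ADP/ATP carrier known best from heart and muscle, was at 99.7, 101 and 102 FPKM in the WT libraries and 158, 125 and 171 FPKM in the cKO libraries (log2 fold change 0.56, adjusted p = 0.00533). Slc25a3, which brings in the phosphate for ATP synthesis, was at 180.3, 178 and 175 FPKM in the WT libraries and 152, 153 and 172 FPKM in the cKO libraries. Every cKO value was under every WT value, yet the difference was small and missed the threshold (log2 fold change -0.16, adjusted p = 0.102), and it passed it without cKO library 3 (log2 fold change -0.22, adjusted p = 0.0192). These 3 differences depended on the scaling. In the same limma test after quantile normalization, the log2 fold change of Slc25a5 was 0.19 (adjusted p = 0.0475). That of Slc25a4 was 0.19 and no longer called (adjusted p = 0.0619), and that of Slc25a3 was -0.61 and called lower (adjusted p = 0.000207). Of the summed FPKM of all 37 carriers, Slc25a5 took 40.95, 40.6 and 40.8% in WT and 56.1, 53.9 and 57.5% in cKO, and Slc25a3 took 15.2, 15.1 and 14.7% in WT and 9.68, 10.7 and 9.91% in cKO. The carriers' summed FPKM was 1.33 times as high in cKO as in WT although more of them fell than rose. The sum over all tested genes was 1.48 times as high, so the carriers rose less than the whole. Slc25a5 made up the largest part of the carriers' sum in every library. Slc25a5 is on the X chromosome and has related and processed copies in the genome, and how shared reads were counted is not given in the sources used here.

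The calcium-regulated ATP-Mg/phosphate carriers load adenine nucleotides into the matrix. Slc25a23 was the main one by level, at 33.4, 32.9 and 33.5 FPKM in the WT libraries and 23.98, 19.04 and 20.9 FPKM in the cKO libraries, with all cKO values lower (log2 fold change -0.63, adjusted p = 0.00107). Slc25a25 was at 8.35, 8.18 and 8.42 FPKM in the WT libraries and 7.66, 10.3 and 7.04 FPKM in the cKO libraries (log2 fold change -0.012, adjusted p = 0.935), and Slc25a24 was at 1.49, 1.75 and 1.65 FPKM in the WT libraries and 2.01, 1.90 and 1.80 FPKM in the cKO libraries (log2 fold change 0.14, adjusted p = 0.174). Neither of these passed the test.

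Of the organic acid carriers, 1 rose and 1 fell. Slc25a11, the oxoglutarate/malate exchanger, was at 28, 30.5 and 28.4 FPKM in the WT libraries and 52.2, 36.7 and 48.7 FPKM in the cKO libraries (log2 fold change 0.63, adjusted p = 0.0049). Slc25a1, which exports citrate to the cytosol, was at 7.58, 7.39 and 7.88 FPKM in the WT libraries and 5.13, 4.52 and 4.63 FPKM in the cKO libraries (log2 fold change -0.58, adjusted p = 0.000669). The dicarboxylate carrier Slc25a10 was at 4.07, 3.78 and 4.09 FPKM in the WT libraries and 3.65, 3.26 and 3.18 FPKM in the cKO libraries, without overlap but short of the threshold (log2 fold change -0.19, adjusted p = 0.0693). Slc25a11 works with the aspartate/glutamate carriers in the malate-aspartate shuttle, and both of those were also higher in cKO. Slc25a13 was at 1.65, 1.71 and 1.95 FPKM in the WT libraries and 3.30, 3.33 and 3.83 FPKM in the cKO libraries (log2 fold change 0.69, SE 0.09, adjusted p = 0.000677). Slc25a12, by far the more abundant form here, was at 21.4, 22.99 and 22.98 FPKM in the WT libraries and 29.9, 26.1 and 31.4 FPKM in the cKO libraries (log2 fold change 0.36, adjusted p = 0.00853). In each of these 3 shuttle carriers the lowest cKO value was above the highest WT value.

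The other amino acid carriers went different ways. Slc25a22, a glutamate carrier, was at 8.04, 8.86 and 8.12 FPKM in the WT libraries and 1.58, 4.54 and 2.38 FPKM in the cKO libraries. It was 2.94 times as high in WT as in cKO on the mean FPKM, with the cKO libraries spread widely (log2 fold change -1.36, SE 0.25, adjusted p = 0.00278). Slc25a29, the carrier of basic amino acids, was at 3.34, 2.52 and 3.39 FPKM in the WT libraries and 2.50, 1.29 and 1.31 FPKM in the cKO libraries (log2 fold change -0.62, adjusted p = 0.0225), a call that was lost on leaving out WT library 1 or 3 or cKO library 2 or 3, with adjusted p up to 0.0875. Slc25a20, which imports acylcarnitines for fatty acid oxidation, was at 14.4, 15.5 and 14.6 FPKM in the WT libraries and 20.7, 16.4 and 18.4 FPKM in the cKO libraries (log2 fold change 0.29, adjusted p = 0.0288), a call also lost without any 1 of the WT libraries or cKO library 3, with adjusted p up to 0.0933. The ornithine carrier Slc25a15 (-0.23), the branched-chain amino acid carrier Slc25a44 (-0.18) and the glycine carrier Slc25a38 (0.0054) had these log2 fold changes and did not pass the test. Of these, Slc25a15 passed without cKO library 3 (log2 fold change -0.27, adjusted p = 0.0452) and Slc25a44 without cKO library 1 (log2 fold change -0.25, adjusted p = 0.0427).

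The carriers of nucleotides, cofactors, glutathione and iron leaned downward, with 2 higher, 6 lower, 4 not called and a median log2 fold change of -0.21. The largest drop of all 59 genes was that of Slc25a37 (chr14:69241848-69285112), mitoferrin 1, which brings iron into mitochondria and is known best from red cell precursors. It was at 47.1, 47.5 and 47.99 FPKM in the WT libraries and 11.5, 17.9 and 10.9 FPKM in the cKO libraries. The WT level was 3.54 times the cKO level on the mean FPKM, with no overlap (log2 fold change -1.78, SE 0.16, adjusted p = 0.000222), and its share of the carriers' summed FPKM was 3.96, 4.02 and 4.04% in WT and 0.730, 1.25 and 0.631% in cKO. The globin genes, other red cell genes, moved the opposite way in these libraries, and the part of red cells in either difference was not tested. Its relative Slc25a28, mitoferrin 2, was at 19.2, 18.7 and 17.6 FPKM in the WT libraries and 13.8, 12.8 and 10.6 FPKM in the cKO libraries (log2 fold change -0.55, adjusted p = 0.00277). Both iron carriers were thus lower in every cKO library. Slc25a42, a carrier of coenzyme A and adenine nucleotides, was at 3.18, 2.47 and 2.90 FPKM in the WT libraries and 0.607, 0.964 and 1.09 FPKM in the cKO libraries (log2 fold change -1.03, adjusted p = 0.000586), and it had passed the level filter through its WT values.

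Slc25a17, a carrier of coenzyme A and flavin and nicotinamide nucleotides that sits in peroxisomes rather than mitochondria, was at 36.9, 37.6 and 39 FPKM in the WT libraries and 46.6, 53.4 and 59.9 FPKM in the cKO libraries (log2 fold change 0.48, adjusted p = 0.00392). The folate carrier Slc25a32 was the other member of the group that rose (log2 fold change 0.29, adjusted p = 0.0201), and its call was lost without WT library 1 or 2 or cKO library 3, with adjusted p up to 0.0874. Smaller falls were called for the pyrimidine nucleotide carrier Slc25a36 (-0.27) and the NAD carrier Slc25a51 (-0.19). Both calls were lost without any 1 of the WT libraries, with adjusted p up to 0.102 for Slc25a36 and 0.0958 for Slc25a51, and that of Slc25a36 also without cKO library 1 or 3. The glutathione carriers Slc25a39 (-0.15) and Slc25a40 (-0.15), the S-adenosylmethionine carrier Slc25a26 (-0.27) and Slc25a16 (-0.13) did not pass the test. Slc25a26 passed without cKO library 3 (adjusted p = 0.0206) and Slc25a40 without cKO library 2 (adjusted p = 0.0411).

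Of the remaining 8 carriers, 3 were lower and 1 was higher. Slc25a27, the uncoupling protein relative UCP4 known from brain, was at 7.24, 7.12 and 7.02 FPKM in the WT libraries and 1.46, 3.14 and 1.51 FPKM in the cKO libraries (log2 fold change -1.46, SE 0.19, adjusted p = 0.000749). Its WT libraries were close together and all cKO values were below them. Slc25a47, a carrier otherwise found in liver, was at 4.36, 3.24 and 3.79 FPKM in the WT libraries and 0.890, 2.16 and 1.43 FPKM in the cKO libraries (log2 fold change -0.97, adjusted p = 0.0036), and its value in cKO library 1 was under 1 FPKM. Slc25a45 was at 11.8, 12.96 and 12.9 FPKM in the WT libraries and 9.06, 9.43 and 8.70 FPKM in the cKO libraries (log2 fold change -0.43, adjusted p = 0.00149). In the other direction Slc25a30, another uncoupling protein relative, was higher (log2 fold change 0.41, adjusted p = 0.0155), a call lost without WT library 1 or cKO library 3 (adjusted p = 0.05004 and 0.0591). Slc25a46, an outer membrane protein that acts in mitochondrial dynamics, was at 16.96, 17.4 and 17.2 FPKM in the WT libraries and 15.4, 16.8 and 17.6 FPKM in the cKO libraries (log2 fold change -0.053, adjusted p = 0.514). Slc25a14 (0.41), Slc25a35 (0.31) and Slc25a53 (-0.28) did not pass the test, but each passed when 1 library was left out, Slc25a14 without cKO library 1 (adjusted p = 0.0344), Slc25a35 without cKO library 2 (adjusted p = 0.0214) and Slc25a53 without cKO library 2 (adjusted p = 0.0140). Slc25a35 shares 820 exon bases with Rangrf on the opposite strand.

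**Figure D3:**
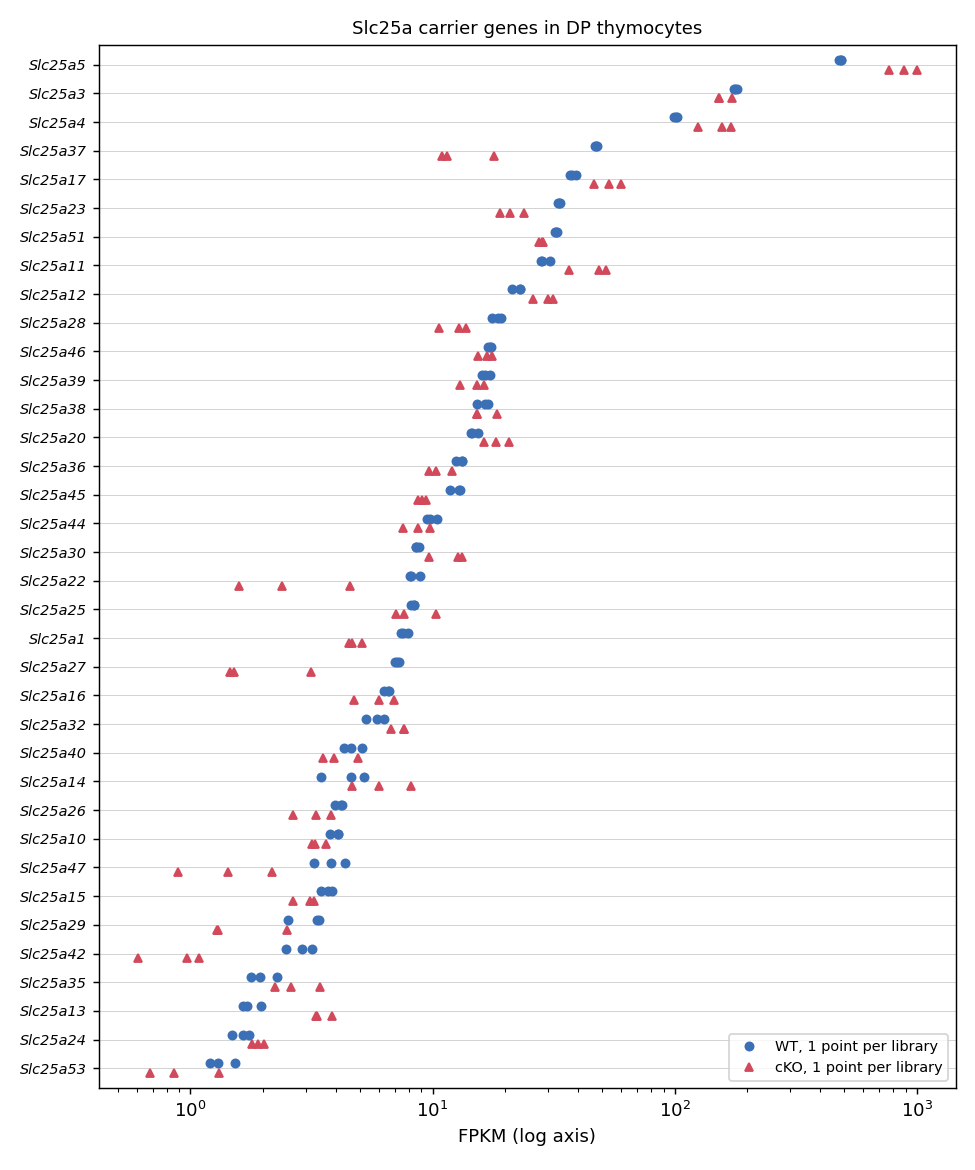
FPKM (log axis) of 36 of the 37 Slc25a genes, ordered by their WT mean, with 1 blue circle for each of 3 WT libraries and 1 red triangle for each of 3 cKO libraries. Slc25a5 leads in every library, the cKO points of 10 genes all lie above and those of 16 genes all below the WT points, and the gap is widest for Slc25a37.

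The FPKM ratio of related genes within each library, a measure that library scaling does not change, is given for 9 pairs as a description. These pairs were chosen after their values were seen, so no test is given. Slc25a5 over Slc25a4 was 4.88, 4.75 and 4.74 in WT and 5.60, 6.17 and 5.84 in cKO, and Timm17a over Timm17b was 2.14, 1.97 and 1.87 in WT and 2.92, 3.01 and 2.75 in cKO. In both pairs the ratio was higher in every cKO library, but after the GC and length correction the log2 fold changes of Slc25a5 (0.48) and Slc25a4 (0.45) were close to each other, while those of Timm17a (1.22) and Timm17b (0.62) were not. Slc25a37 over Slc25a28 was 2.45, 2.55 and 2.73 in WT and 0.832, 1.40 and 1.03 in cKO, so that mitoferrin 1 went from the clearly more abundant form to about the level of mitoferrin 2. Slc25a13 over Slc25a12 was 0.0769, 0.0744 and 0.0850 in WT and 0.110, 0.128 and 0.122 in cKO, a gain of the scarce form. Tomm40 over Tomm40l was 4.99, 4.21 and 3.79 in WT and 2.59, 2.61 and 3.03 in cKO, and Timm8b over Timm8a1 was 4.67, 6.35 and 4.62 in WT and 7.62, 7 and 8.34 in cKO. Slc25a23 over Slc25a24 was 22.4, 18.8 and 20.2 in WT and 11.9, 10.01 and 11.6 in cKO, and Slc25a23 over Slc25a25 was 3.997, 4.02 and 3.98 in WT and 3.13, 1.84 and 2.97 in cKO. The cKO and WT ratios did not overlap in these 8 pairs, and for Slc25a39 over Slc25a40 they overlapped. The corrected log2 fold changes were also closer than the uncorrected ones for Timm8b (0.11) and Timm8a1 (-0.0082) and for Slc25a23 (-0.20) and Slc25a24 (-0.032). The same held for Slc25a13 (0.63) and Slc25a12 (0.48), Tomm40 (0.16) and Tomm40l (0.49), and Slc25a23 and Slc25a25 (0.26). Those of Timm17a and Timm17b, Slc25a37 (-1.70) and Slc25a28 (-0.37), and Slc25a39 (0.14) and Slc25a40 (-0.46) were farther apart.

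**Figure D4:**
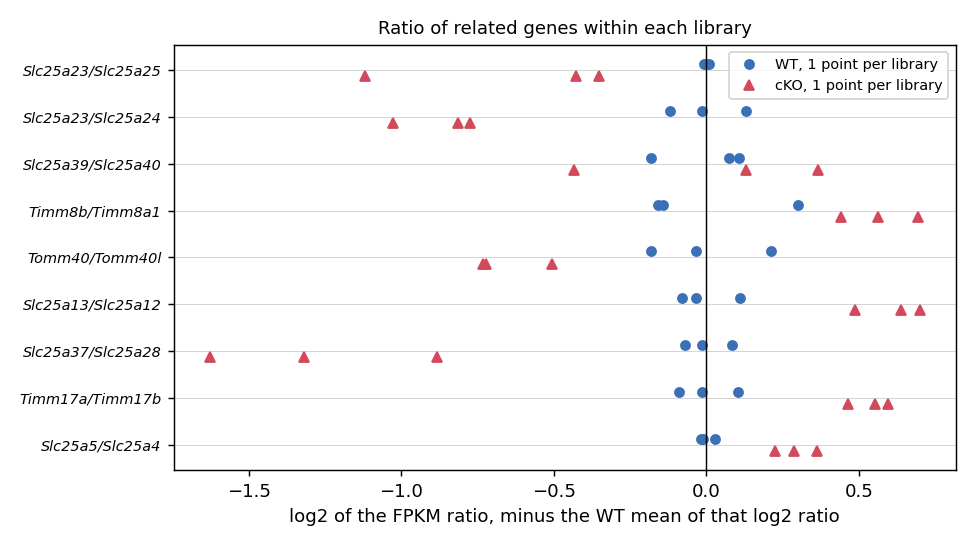
Log2 of the FPKM ratio of 9 pairs of related genes in each library, minus the mean of that log2 ratio in WT (horizontal axis), with 1 blue circle for each of 3 WT libraries and 1 red triangle for each of 3 cKO libraries. The cKO points lie apart from the WT points in 8 pairs, farthest to the left for Slc25a37 over Slc25a28, and overlap them for Slc25a39 over Slc25a40.

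The differences of the import genes were smaller once transcript length and GC content were taken into account. Fold changes in these libraries fell with transcript length and GC content over all tested genes (Spearman's rho -0.31 and -0.35 over 10241 genes of the same 6 libraries, given as a description). The Timm and Tomm transcripts were short, with a median of 1468 nt against 2590 nt for all tested genes, and those of the small TIM genes had a median of 649 nt. Once both were fitted over all genes and removed, 11 of the 22 Timm and Tomm genes were called higher, beside 29.9% of all tested genes, and 1 lower, Tomm6 (log2 fold change -0.38), beside 27.2%. Their median log2 fold change was then 0.23. Timm50 (1.25), Timm17a (1.22) and Timm17b (0.62) kept about their size or gained. The calls of 6 genes ended, those of Timm8b (0.11), Timm9 (-0.12), Timm10b (0.023), Tomm5 (0.0061), Timm44 (0.18) and Timm21 (-0.0069). Timm22 (0.51), Tomm70a (0.49) and Tomm40l (0.49) also stayed called. Timm10 (0.41), Timm23 (0.29), Tomm7 (0.36) and Tomm22 (0.34) stayed higher at less than their former size. Of the small TIM genes only Timm10 and Timm13 (0.48) were still called. The part of length and GC content in the uncorrected differences was not tested further.

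The carriers kept their mixed pattern under the same correction, with 9 higher and 16 lower and a median log2 fold change of -0.11. Their transcripts had a median of 2556 nt, near that of all genes. Slc25a37 (-1.70), Slc25a27 (-1.59), Slc25a42 (-0.65), Slc25a5 (0.48) and Slc25a13 (0.63) stayed on their side. The calls of Slc25a17 (0.12), Slc25a20 (0.10), Slc25a23 (-0.20), Slc25a29 (-0.22) and Slc25a51 (-0.11) were among those that ended. Slc25a3 was then called lower (-0.44), as were Slc25a15, Slc25a16, Slc25a26, Slc25a40, Slc25a46 and Slc25a53, and Slc25a10 (0.23) and Slc25a35 (0.38) were called higher.

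**Figure D5:**
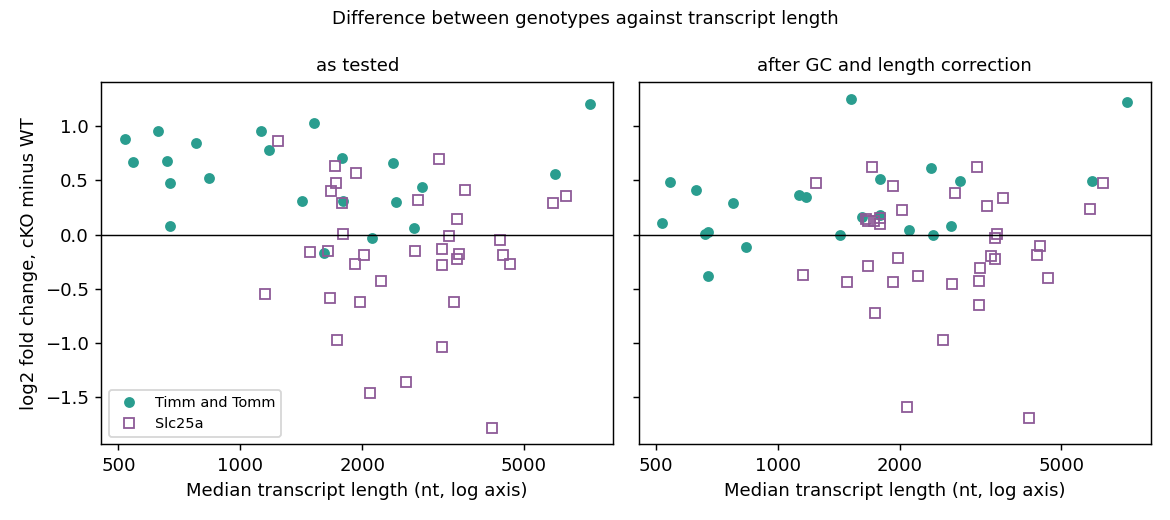
Log2 fold change, cKO minus WT, of the 22 Timm and Tomm genes (filled circles) and 36 of the 37 Slc25a genes (open squares) against median transcript length in nt (log axis), as tested (left) and after correction for GC content and length (right). The corrected values of Timm8b, Timm9, Timm10b and Tomm5 lie near 0, while Timm17a and Timm50 stay at the top in both panels and Slc25a37 and Slc25a27 at the bottom.

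Import and transport genes outside the name rule also mostly rose. Of 31 listed, 29 were tested, all but the uncoupling protein genes Ucp1 and Ucp3, and of these 24 were higher in cKO and 2 lower, with a median log2 fold change of 0.60 (20 higher and 1 lower after the GC and length correction). Of all tested genes 35.8% were called higher and 29.8% lower, and 29.9% and 27.2% after that correction. The list was chosen with earlier results of these data known. The 6 genes of the import motor and its co-chaperones, Hspa9, Grpel1, Grpel2, Dnajc19, Dnajc15 and Pam16, were all higher, with log2 fold changes from 0.41 to 0.71. Hspe1, the matrix co-chaperonin, was at 109, 104 and 104 FPKM in the WT libraries and 235, 208 and 270.1 FPKM in the cKO libraries (log2 fold change 1.15, adjusted p = 0.000222). Pmpcb, a subunit of the peptidase that removes presequences, was at 29.02, 27.6 and 29.1 FPKM in the WT libraries and 61.2, 48.2 and 58.6 FPKM in the cKO libraries (log2 fold change 0.94, adjusted p = 0.00036), while the partner subunit Pmpca did not pass the test (log2 fold change 0.13, adjusted p = 0.31). Vdac3, a pore of the outer membrane, was at 69.1, 71.5 and 75.5 FPKM in the WT libraries and 139.5, 119.5 and 168 FPKM in the cKO libraries (log2 fold change 0.96, adjusted p = 0.000735). These genes for folding, processing and outer membrane passage had groups that did not overlap, other than Pmpca. The 2 that fell were Mtx3, a relative of the metaxins of the sorting and assembly machinery, and Ucp2, an uncoupling protein that belongs to the Slc25 family by sequence. Mtx3 was at 1.69, 1.56 and 1.85 FPKM in the WT libraries and 0.614, 1.29 and 0.888 FPKM in the cKO libraries (log2 fold change -0.50, adjusted p = 0.0153), and it passed the level filter through its WT values and was not tested where 1 FPKM was asked of all 6 libraries. Ucp2 was at 469, 462.5 and 465 FPKM in the WT libraries and 398, 289 and 375 FPKM in the cKO libraries (log2 fold change -0.41, adjusted p = 0.0303), which makes it about as abundant in WT as Slc25a5 and clearly less abundant in cKO. The call of Ucp2 was lost on leaving out any 1 of the WT libraries, with adjusted p up to 0.0895, and with the GC and length correction (-0.038), and that of Mtx3 was lost without WT library 3 (adjusted p = 0.0582).

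The cKO libraries were not equally far from WT. Among the 26 genes of the set called higher, cKO library 2 was the nearest to WT in 16 (61.5%), beside 59.0% of all genes called higher, and among the 13 called lower it was the nearest in 6 (46.2%), beside 55.7%. Of the 5 X-linked members, Timm17b and Slc25a5 were called higher, and Timm8a1, Slc25a14 and Slc25a53 were not called. The mature single-positive markers fell in the same libraries in which 13 carriers fell, and their part in those differences was not tested. If all libraries are brought to the same summed FPKM, the median of all genes shifts to -0.45, and against that shift the Timm and Tomm median was 0.064 and the Slc25a median -0.63.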

How the data were processed

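RNA was sequenced from 6 libraries of sorted DP thymocytes, 3 per genotype, made with a directional kit. Per the labels and the methods of the study, the authors aligned reads with TopHat to mm10 and deposited FPKM per gene symbol. The version, annotation and strand setting of the counting are not given in the sources used here. The authors tested counts with DESeq2, and counts were not used here. Values were divided by median-of-ratios size factors (1.002 to 1.015) and tested as log2(FPKM + 1) with limma 3.58.1 in R 4.3.3 (lmFit, eBayes with trend, Benjamini-Hochberg over 10326 genes with at least 1 FPKM in at least 3 libraries, called at an adjusted p under 0.05). The fit was also run on simulated data in which each gene had the same spread in both genotypes. The spread of the real libraries differed strongly between genotypes, so that run does not show how the fit behaves on them. Gene lengths, GC content and coordinates came from GENCODE M21 (GRCm38), and the correction used natural splines with 5 degrees of freedom in each library. Depth was estimated from whole-fragment steps among low FPKM values, taking a fragment length of 200 bases. Between 66.2% and 72.0% of those values lay within 0.1 of a whole fragment, so depth is approximate and no count test was run.

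All Timm and Tomm genes were named. Of the carriers, the ADP/ATP, phosphate and mitoferrin genes, the 5 highest by mean and for each direction the 6 called genes of smallest adjusted p were named, and others with their values. Outside the rule the 3 largest changes in each direction were named. The members, gene lists and motifs were chosen with earlier results of these data known. Alternatives were the pseudocount, level filter, scaling, trend, replicate block, GC and length correction, WT as 1 sample, and each library left out. The replicate numbers were shared between genotypes, but same-numbered libraries did not deviate together (correlations -0.022, 0.039 and 0.031). The values of 1 carrier and of some marker genes are not reported here, though the counts include them.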

Additional observations from a re-analysis of the deposited data

How the results depend on the processing

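Of 736 values of single named genes under the alternatives, 647 stayed on the same side of zero and of the threshold. Of the rest, 9 were newly called, 55 were no longer called and 25 had the opposite sign. The cause of these changes was not tested. The tally is not a share of calls kept, since it includes genes not called in the main fit, such as Tomm20. It leaves out carriers such as Slc25a20, Slc25a29 and Slc25a36, whose calls were lost when single libraries were left out. With WT counted as 1 sample, 1641 genes were called in all, 3 Timm and Tomm genes higher, 1 carrier higher and 3 lower, 4 genes outside the name rule higher and 0 lower, and Nsrp1 was at -0.34 (adjusted p = 0.184). With the same summed FPKM in every library, 6 Timm and Tomm genes were higher and 4 lower, 2 carriers higher and 25 lower, and 6 genes outside the rule higher and 4 lower. Of all 10326 tested genes, 902 were higher and 6181 lower in that setting, so most genes of any kind were called lower. With the GC and length correction, 11 Timm and Tomm genes were higher and 1 lower, and 1 gene outside the rule lower. The count of genes outside the rule called lower was also 1 with quantile normalization, with genes above 0 in at least 1 library, and with at least 1 FPKM in all 6 libraries. With the same summed FPKM these log2 fold changes turned negative: Timm10b -0.068, Timm21 -0.24, Timm44 -0.23, Timm8a1 -0.22, Timm9 -0.0062, Tomm20 -0.49, Tomm40l -0.072, Tomm6 -0.47, Slc25a17 -0.073 and Slc25a12 -0.18. With the GC and length correction, with or without the replicate block, the sign turned for Timm21 -0.0069, Timm8a1 -0.0082, Timm9 -0.12, Tomm34 0.041, Tomm40 0.16 and Tomm6 -0.38, with quantile normalization for Tomm20 -0.050 and Tomm6 -0.13, and without cKO library 1 for Tomm34 0.028 (-0.11 without cKO library 2). With 1 library left out, 5589 to 7654 genes were called in all, 17 to 19 Timm and Tomm genes higher and 0 lower, 6 to 10 carriers higher and 9 to 14 lower, 23 to 26 genes outside the rule higher and 0 to 2 lower, and Nsrp1 was between -0.40 and -0.29. The replicate numbers did not pair the libraries. With the replicate block, 6467 genes were called in all, 17 Timm and Tomm genes higher and 0 lower, 10 carriers higher and 10 lower, and 25 genes outside the rule higher and 2 lower. With the block and the GC and length correction, 10 Timm and Tomm genes were higher and 0 lower, and 1 gene outside the rule was lower. Low carriers such as Slc25a42, Slc25a47 and Slc25a53 are limited by depth. With at least 1 FPKM in all 6 libraries they were not tested, and of the 34 carriers left 9 were higher and 11 lower.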
